A study of Homo sapiens with 42 samples.

Results

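In 1205Lu cells held under an Aurora kinase inhibitor, many genes of DNA replication, DNA repair and chromosome segregation were lower after 18 h than after 12 h, and no called change reached 2-fold. The comparison set the 8 arrays titled 18 h against the 8 titled 12 h, which are 16 of the 42 arrays of the series, with the inhibitor as a covariate. It covered 8568 of the 8918 genes that lay above background anywhere in the series. Of these, 303 passed the test, 140 of them higher and 163 lower at 18 h.

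The groups were AZD1152 for 18 h (4 arrays) and SNS-314 for 18 h (4 arrays), against AZD1152 for 12 h (4 arrays) and SNS-314 for 12 h (4 arrays). AZD1152 (barasertib), which acts mainly on Aurora kinase B, was given at 0.5 µM, and SNS-314, which acts on all Aurora kinases, at 0.05 µM. Every group was the 1205Lu line, an established human metastatic melanoma line, in Tu2% medium, and total RNA was read on single-colour Illumina HT-12 bead arrays. The study followed these cells from 0 to 48 h, and its title names senescence as the outcome under Aurora inhibition. All 16 arrays carry an inhibitor, so time under the drug and time in culture cannot be told apart here. As these are bulk samples, fewer cells of a kind and less RNA per cell cannot be told apart either.

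Aurora kinase B, with INCENP, survivin and borealin, corrects faulty attachments of chromosomes to the spindle and is needed for the final cut between daughter cells. Cells without its activity copy their DNA, enter mitosis, fail to divide and return to interphase with extra chromosomes. Genes for DNA replication are switched on before S phase by E2F factors, which retinoblastoma proteins hold back. Genes for mitosis peak later in the cycle and often carry a CHR element, the sequence through which the DREAM and MuvB complexes act, next to CCAAT boxes bound by NF-Y. The p53 protein, through its target p21 (CDKN1A), can hold both sets of genes down.

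Precision is limited by the number of arrays: the median standard error of a change was 0.089 on the log2 scale. Arrays had 21.8% to 30.3% of probes above background and a median intensity of 229.2 to 293.8. The 4 arrays of AZD1152 at 18 h correlated less well with each other (median r with their own group 0.968 to 0.977) than those of AZD1152 at 12 h (0.986 to 0.990). Replicates 1 and 4 of AZD1152 at 18 h and replicate 4 of SNS-314 at 12 h stood apart from their groups, with r under 0.9756. The main counts are also given without these 3 arrays. That limit was set over all 16 arrays, and it split AZD1152 at 18 h narrowly (replicate 4 at 0.9750, replicate 2 at 0.9759). Only replicates 2 and 3 of that group remain in fits without the 3 arrays. Nothing in the labels tells whether the replicates were separate cultures, so p-values measure only how far these arrays spread, and that spread may be technical. Of the markers of melanocytes only SOX10 was above background (all 16 arrays), and MITF, PMEL, TYR, TYRP1, MLANA and S100B were below background on every array. AXL, EGFR and TNC, which mark an invasive melanoma state, were above background on all 16 arrays. NGFR, the other marker of that state, was below background on every array. PDGFRA and PDGFRB of the fibroblast markers and CD68 of the leukocyte markers were also above background on all 16. The other markers of fibroblasts, leukocytes, endothelium and keratinocytes that had a probe were below background on all 16 arrays, and no marker passed the test (SOX10 had a change of 0.28, adjusted p = 0.058).

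Levels are log2 intensities after background correction and quantile normalisation, and a change is the level at 18 h minus that at 12 h (limma, ± SE). A gene was called at an adjusted p under 0.05 (Benjamini-Hochberg over 8568 genes). The 303 called genes were 3.54% of those tested, 1.63% higher and 1.9% lower, and 1492 genes had an unadjusted p under 0.05. The called folds ran from 1.18 to 1.80, with a median of 1.30. Without the 3 arrays that stood apart, 421 genes were called, 187 higher (2.18%) and 234 lower (2.73%), and 240 of the 303 were among them. The column headers end in 4 codes, read here as the chip that held an array although no label says so. Each code holds 1 array of each of the 4 groups compared, while the other times are spread unevenly over the codes. With this chip as a block 396 were called. The count was 188 without replicate 3 of AZD1152 at 12 h, 198 without replicate 4 of that group and 197 without replicate 2 of AZD1152 at 18 h. The 8 arrays at 18 h and the 8 at 12 h did not overlap for 45 higher genes (0.525%) and 34 lower genes (0.397%), 79 in all (0.922%).

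**Figure D1:**
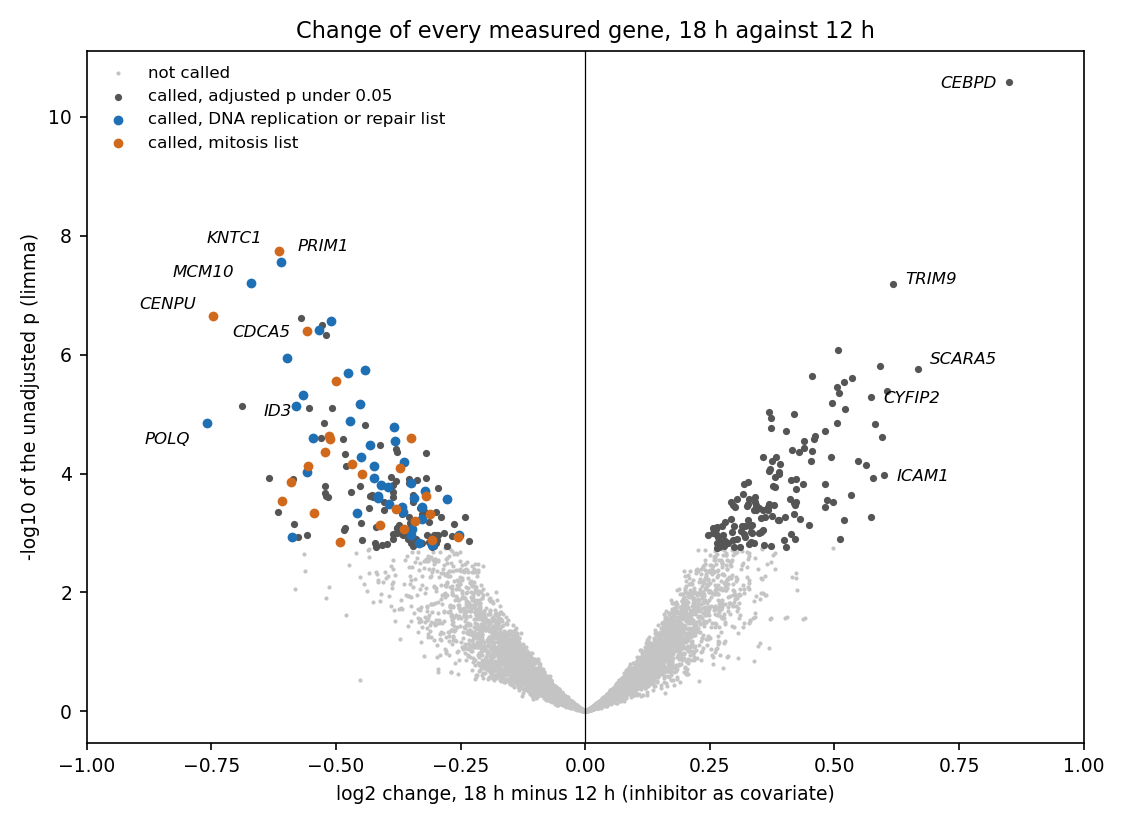
Log2 change (18 h minus 12 h, horizontal) against -log10 of the unadjusted limma p (vertical), 1 point for each of the 8568 genes. Called genes of the DNA replication and repair lists (blue) and of the mitosis list (orange) all lie left of 0, and CEBPD stands alone at the upper right with a change of 0.85.

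Of 64 measured genes of DNA replication (73 listed), 27 were lower and 0 were higher, where 1.9% of all genes were lower. The list's median change was -0.29 (all genes 0.0041), and 62 of its 64 members had a negative change, as did 4173 of all 8568 genes. The median was -0.29 with AZD1152 and -0.29 with SNS-314, and between -0.31 and -0.26 on the 4 chips. With the 3 arrays that stood apart left out, 31 members were lower.

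At the origin, where the helicase is loaded and fired, 10 of 21 genes were lower, with a median of -0.32. MCM10, which helps to activate the replicative helicase, had log2 levels of 9.53 to 10.06 (median 9.87) at 18 h, against 10.28 to 10.69 (median 10.53) at 12 h. No array at 18 h reached the lowest array at 12 h. MCM10 fell by 0.67 ± 0.084 (adjusted p = 0.00011), which is 1.59-fold lower, while its other passing probe had a change of -0.43. TOPBP1, which recruits initiation factors and also serves checkpoint signalling, fell by 0.42 ± 0.090 (adjusted p = 0.011). CDC45, a subunit of the active helicase, fell by 0.42 ± 0.095 (adjusted p = 0.016). The other 7 called members were the helicase subunits MCM2, MCM3, MCM6 and MCM7, the loader CDT1, the helicase partner GINS2 and the firing kinase CDC7, which fell by 0.25 to 0.42. CDC6, a loader of the helicase, was not above background.

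At the fork, 11 of 26 genes were lower, with a median of -0.31. PRIM1, the catalytic subunit of the primase that lays the RNA primer, lay at 9.90 to 10.35 (median 10.01) at 18 h, against 10.51 to 10.79 (median 10.66) at 12 h. The groups did not overlap, and PRIM1 fell by 0.61 ± 0.072 (adjusted p = 7.7e-05). Its change was -0.71 with AZD1152 and -0.51 with SNS-314. POLE2, a subunit of the leading-strand polymerase, lay at 9.75 to 10.20 (median 9.85) at 18 h, against 10.26 to 10.58 (median 10.42) at 12 h, again with no overlap (fell by 0.53 ± 0.074, adjusted p = 0.00031). DSCC1, part of the loader of the sliding clamp that acts in sister cohesion, fell by 0.55 ± 0.10 (adjusted p = 0.0041). The rest of the 11 fell by 0.28 to 0.51. They were the flap nuclease FEN1, the clamp loader subunits RFC4 and RFC5 and the polymerase subunits POLA1, POLA2 and POLD3. The fork protein TIPIN and the sliding clamp PCNA completed the 11. The other passing probe of FEN1 had a change of -0.20, against -0.51 for the probe used.

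Of 9 measured genes that supply nucleotides, 1 was lower. DCK, a kinase that salvages deoxynucleosides, fell by 0.34 ± 0.079 (adjusted p = 0.016). RRM2, the small subunit of ribonucleotide reductase, was not called, with a change of -0.38 ± 0.15 (adjusted p = 0.18). Its levels of 10.16 to 11.68 (median 10.60) at 18 h overlapped those of 10.62 to 11.58 (median 10.96) at 12 h, and it was called without the 3 arrays that stood apart (-0.54, adjusted p = 0.018).

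Genes that place histones and DNA methylation on new DNA had the lowest median of the replication lists, -0.37, with 5 of 8 lower. CHAF1B, a subunit of the histone chaperone CAF-1, lay at 9.38 to 9.95 (median 9.71) at 18 h, against 9.84 to 10.52 (median 10.29) at 12 h. The ranges overlapped through 1 array of each time, both with SNS-314, and CHAF1B fell by 0.58 ± 0.099 (adjusted p = 0.0021). UHRF1, which guides the maintenance methyltransferase to new DNA, fell by 0.44 ± 0.068 with no overlap (adjusted p = 0.00092). ASF1B, another histone chaperone, fell by 0.41 ± 0.089 (adjusted p = 0.012), and HELLS and SLBP were the remaining called members. Of 7 measured replication-dependent histone genes (53 listed), 1 was lower: H4C3, a core histone H4 gene, fell by 0.33 ± 0.079 (adjusted p = 0.020). Near-identical histone copies can share probes, so that value may not be H4C3 alone, and the call was lost without replicate 2 of AZD1152 at 18 h.

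Of 16 regulators of entry into S phase, 5 were lower and 0 higher (1.9% of all genes were lower), with a median of -0.24. The other passing probe of CDK2, 1 of the 5, had a change of -0.075, against -0.34 for the probe used. E2F2, an activator of replication genes, lay at 9.84 to 10.36 (median 10.12) at 18 h, against 10.15 to 10.84 (median 10.59) at 12 h, with overlap, and fell by 0.49 ± 0.092 (adjusted p = 0.0041). E2F7, a repressor of the same family, fell by 0.39 ± 0.088 (adjusted p = 0.016). The other 3 were CCND3, CDK2 and DTL. E2F1 and CCNE2 were not above background.

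Promoter sequences are shown for the members with the largest falls or rises that had a RefSeq entry (GRCh38.p14), to set the letters of the known motifs beside the changes. As an E2F site, 4 words were searched on both strands (TTTCCCGC, TTTGGCGC, TTTCGCGC and TTTGCCGC), together with the CHR words TTTGAA and TTCGAA, the CCAAT box and the p53 half-site. None of these words contains another. Each window ran from 250 bases before to 50 bases after the first listed start of a gene, and a match is a description and not a bound site. The 150 bases before the start are printed 5′ to 3′ on the gene's strand, with any match in capitals.
MCM10 (chr10:13161408-13161557, plus strand): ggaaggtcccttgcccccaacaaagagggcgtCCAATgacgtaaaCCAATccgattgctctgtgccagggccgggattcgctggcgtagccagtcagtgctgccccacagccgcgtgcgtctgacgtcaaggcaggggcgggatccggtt
PRIM1 (chr12:56752324-56752473, minus strand): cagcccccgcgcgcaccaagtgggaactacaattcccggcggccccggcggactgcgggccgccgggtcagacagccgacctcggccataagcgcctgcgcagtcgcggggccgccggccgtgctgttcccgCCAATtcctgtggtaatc
The capitals in both are CCAAT boxes, 118 and 105 bases before the start in MCM10 and 18 bases before it in PRIM1. Neither window held 1 of the E2F words. Of 25 called replication genes with an entry, 14 (56.0%) held an E2F word, as did 37.5% of the 56 measured members with an entry. The share was 5.91% of 7078 tested genes with an entry and 3.31% of all 35116 promoters. Over all called genes, 22.3% of 139 lower genes and 3.48% of 115 higher genes held an E2F word. The CCAAT box is a common word: it lay in 37.9% of the 7078 tested genes and 34.6% of all promoters. Its share was 56.0% of the 25 called replication genes, 55.4% of the 56 measured members, 49.6% of the lower genes and 36.5% of the higher genes.

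Of 27 measured genes of DNA repair (36 listed), 15 were lower and 0 higher, where 1.9% of all genes were lower. Their median was -0.33, against 0.0041 over all genes. TOPBP1 stands on this list and on the origin list. POLQ, the polymerase of an error-prone route of double-strand break repair, had the largest fall of all 8568 genes. Its levels were 9.76 to 10.68 (median 10.36) at 18 h, against 10.51 to 11.34 (median 11.12) at 12 h, and the ranges overlapped through 2 arrays of SNS-314 at 18 h. POLQ fell by 0.76 ± 0.14 (adjusted p = 0.0030). Its change was -1.15 with AZD1152 and -0.37 with SNS-314, and this difference did not pass its own test (adjusted p = 0.47). With AZD1152 at 18 h, POLQ lay at 9.80 and 9.76 in replicates 1 and 4, which stood apart. In replicates 2 and 3 it lay at 10.37 and 10.35. RAD51AP1, a DNA-binding protein of homologous recombination, lay at 10.75 to 11.41 (median 11.24) at 18 h, against 11.63 to 12.07 (median 11.70) at 12 h. It fell by 0.60 ± 0.089 with no overlap (adjusted p = 0.00068). RMI1, which works with the BLM helicase to resolve joined DNA, fell by 0.59 ± 0.16 (adjusted p = 0.039), and its call was lost without the 3 arrays that stood apart (-0.37, adjusted p = 0.064) and when any 1 of 9 arrays was left out. Near this machinery, 2 more genes were among the 10 largest falls: USP1, which removes ubiquitin from PCNA and FANCD2, fell by 0.63 ± 0.14 (adjusted p = 0.011), and ATAD2, a bromodomain ATPase of chromatin, fell by 0.69 ± 0.12 (adjusted p = 0.0021).

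Of 86 measured genes of mitosis (92 listed), 24 were lower and 0 higher, where 1.9% of all genes were lower. Their median was -0.27, and 81 had a negative change, as did 4173 of all 8568 genes. The count of lower genes was 30 without the 3 arrays that stood apart. The median was -0.24 with AZD1152 and -0.25 with SNS-314, and on chip 3 it was -0.47, against -0.24 to -0.21 on the other chips.

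Kinetochore and checkpoint genes held 13 of these 24, out of 29 measured, with a median of -0.32. CENPU, a subunit of the inner kinetochore that recruits Polo-like kinase, had levels of 9.36 to 10.05 (median 9.55) at 18 h, against 9.96 to 10.51 (median 10.38) at 12 h. The ranges overlapped through 1 array of each time, both with SNS-314, and CENPU fell by 0.75 ± 0.10 (adjusted p = 0.00029). KNTC1, part of the complex that brings dynein and checkpoint proteins to the kinetochore, lay at 11.09 to 11.45 (median 11.19) at 18 h, against 11.74 to 11.99 (median 11.85) at 12 h. The groups did not overlap, and the fall of 0.61 ± 0.071 (adjusted p = 7.7e-05) was between 0.57 and 0.65 on the 4 chips. CENPF, a large protein of the outer kinetochore, fell by 0.59 ± 0.13 (adjusted p = 0.011) and did so under both AZD1152 (-0.56) and SNS-314 (-0.62). The other 10 were TTK, MAD2L1, ZWINT, KNL1, SKA3, SPC25, CENPK, CENPN and the condensin subunits SMC2 and NCAPG, which fell by 0.31 to 0.52. The other passing probe of SPC25 had a change of -0.11, against -0.50 for the probe used.

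The promoters of CENPU and CKAP2L, which encodes a spindle and midbody protein, are printed in the same form, with CCAAT boxes on either strand and CHR words in capitals.
CENPU (chr4:184734097-184734246, minus strand): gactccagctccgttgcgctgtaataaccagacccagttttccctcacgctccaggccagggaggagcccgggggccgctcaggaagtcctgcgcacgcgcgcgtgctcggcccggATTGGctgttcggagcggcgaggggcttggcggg
CKAP2L (chr2:112764610-112764759, minus strand): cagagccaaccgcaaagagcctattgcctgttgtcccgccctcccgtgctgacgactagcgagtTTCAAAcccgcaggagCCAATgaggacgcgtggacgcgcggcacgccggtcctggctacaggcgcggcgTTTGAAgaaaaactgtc
CENPU held a CCAAT box on the opposite strand 34 bases before the start, and an E2F word 211 bases before it, outside the stretch shown. CKAP2L held CHR words 86 and 17 bases before the start, the first on the opposite strand, with a CCAAT box between them at 70 bases and another at 185 bases that is not shown. Of 20 called mitosis genes with an entry, 17 (85.0%) held a CHR word, as did 54 of the 72 measured members with an entry. The share was 11.4% of 7078 tested genes, 16.4% of all promoters, 29.5% of 139 lower genes and 7.83% of 115 higher genes. Of the 25 called replication genes, 2 (8.0%) held a CHR word, and 4 of the 20 called mitosis genes held an E2F word. A CCAAT box lay in 70.0% of the 20 called mitosis genes and 69.4% of the 72 measured members, against 37.9% of tested genes.

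Of 21 genes of mitotic entry, 5 were lower, with a median of -0.23. CDK1, the kinase that drives cells into mitosis, lay at 11.42 to 11.93 (median 11.59) at 18 h, against 11.78 to 12.45 (median 12.19) at 12 h, with overlap, and fell by 0.51 ± 0.096 (adjusted p = 0.0040). TOP2A, which untangles chromosomes, fell by 0.49 ± 0.13 (adjusted p = 0.044), a call that was lost when any 1 of 12 arrays was left out. HMMR, a spindle protein, fell by 0.45 ± 0.094 (adjusted p = 0.0097), and the kinase PKMYT1 and the CDK subunit CKS2 completed the 5. CCNB1, the cyclin that pairs with CDK1, was not called, with 10.64 to 11.44 (median 11.24) at 18 h, against 11.07 to 11.45 (median 11.26) at 12 h (-0.10 ± 0.092, adjusted p = 0.61). FOXM1, the factor that switches on many mitotic genes, had a change of 0.038 ± 0.12 (adjusted p = 0.92). MKI67, the Ki-67 proliferation marker, had a change of -0.29 ± 0.12 (adjusted p = 0.19), and -0.33 without the 3 arrays that stood apart (adjusted p = 0.023).

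Of 8 genes of anaphase and cohesin release, 2 were lower. CDCA5 (sororin), which protects cohesion between sister chromatids, lay at 11.57 to 11.91 (median 11.72) at 18 h, against 12.03 to 12.52 (median 12.27) at 12 h, with no overlap. It fell by 0.56 ± 0.078 (adjusted p = 0.00031). FBXO5 (EMI1), which holds the anaphase-promoting complex inactive, fell by 0.47 ± 0.095, also with no overlap (adjusted p = 0.0076). Of 22 mitotic kinesin and cytokinesis genes 4 were lower: CKAP2L fell by 0.61 ± 0.14 (adjusted p = 0.017), KIF20B, a kinesin of late cytokinesis, fell by 0.56 ± 0.11 (adjusted p = 0.0078), and ASPM and KIF15 were the others. CCP110, a cap protein of centrioles on none of the lists, fell by 0.62 ± 0.15 (adjusted p = 0.022), a call lost when any 1 of 3 arrays was left out.

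None of the 6 genes of the chromosomal passenger complex and its partners passed the test, where 3.54% of all genes did. The list is too small to read that count as a result about it. All 6 had a negative change, with a median of -0.20. AURKB, the target of both inhibitors, lay at 10.75 to 12.01 (median 11.27) at 18 h, against 11.18 to 11.90 (median 11.48) at 12 h. The groups overlapped (-0.23 ± 0.13, adjusted p = 0.39), and the change was 0.051 with AZD1152 and -0.50 with SNS-314. The AZD1152 value was -0.14 without replicate 1 at 18 h, an array left out after its values were seen. INCENP, the scaffold of the complex, had a change of -0.29 ± 0.092 (adjusted p = 0.084), and it was called without the 3 arrays that stood apart (-0.37, adjusted p = 0.021), without replicate 4 of AZD1152 at 18 h and without replicate 4 of SNS-314 at 12 h. AURKA, the kinase of spindle poles, had a change of -0.14 ± 0.088 (adjusted p = 0.44), with 12.38 to 12.96 (median 12.89) at 18 h and 12.71 to 13.13 (median 12.95) at 12 h. LMNB1, a lamina gene whose loss is a mark of senescence, had a change of -0.17 ± 0.14 (adjusted p = 0.56). None of the 15 measured genes of its list was called, a count near the 3.54% over all genes. Of these 15, 12 had a negative change, with a median of -0.15. Without the 3 arrays that stood apart, 1 of the 15 was lower, the Polycomb methyltransferase EZH2 (-0.35, adjusted p = 0.019).

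**Figure D2:**
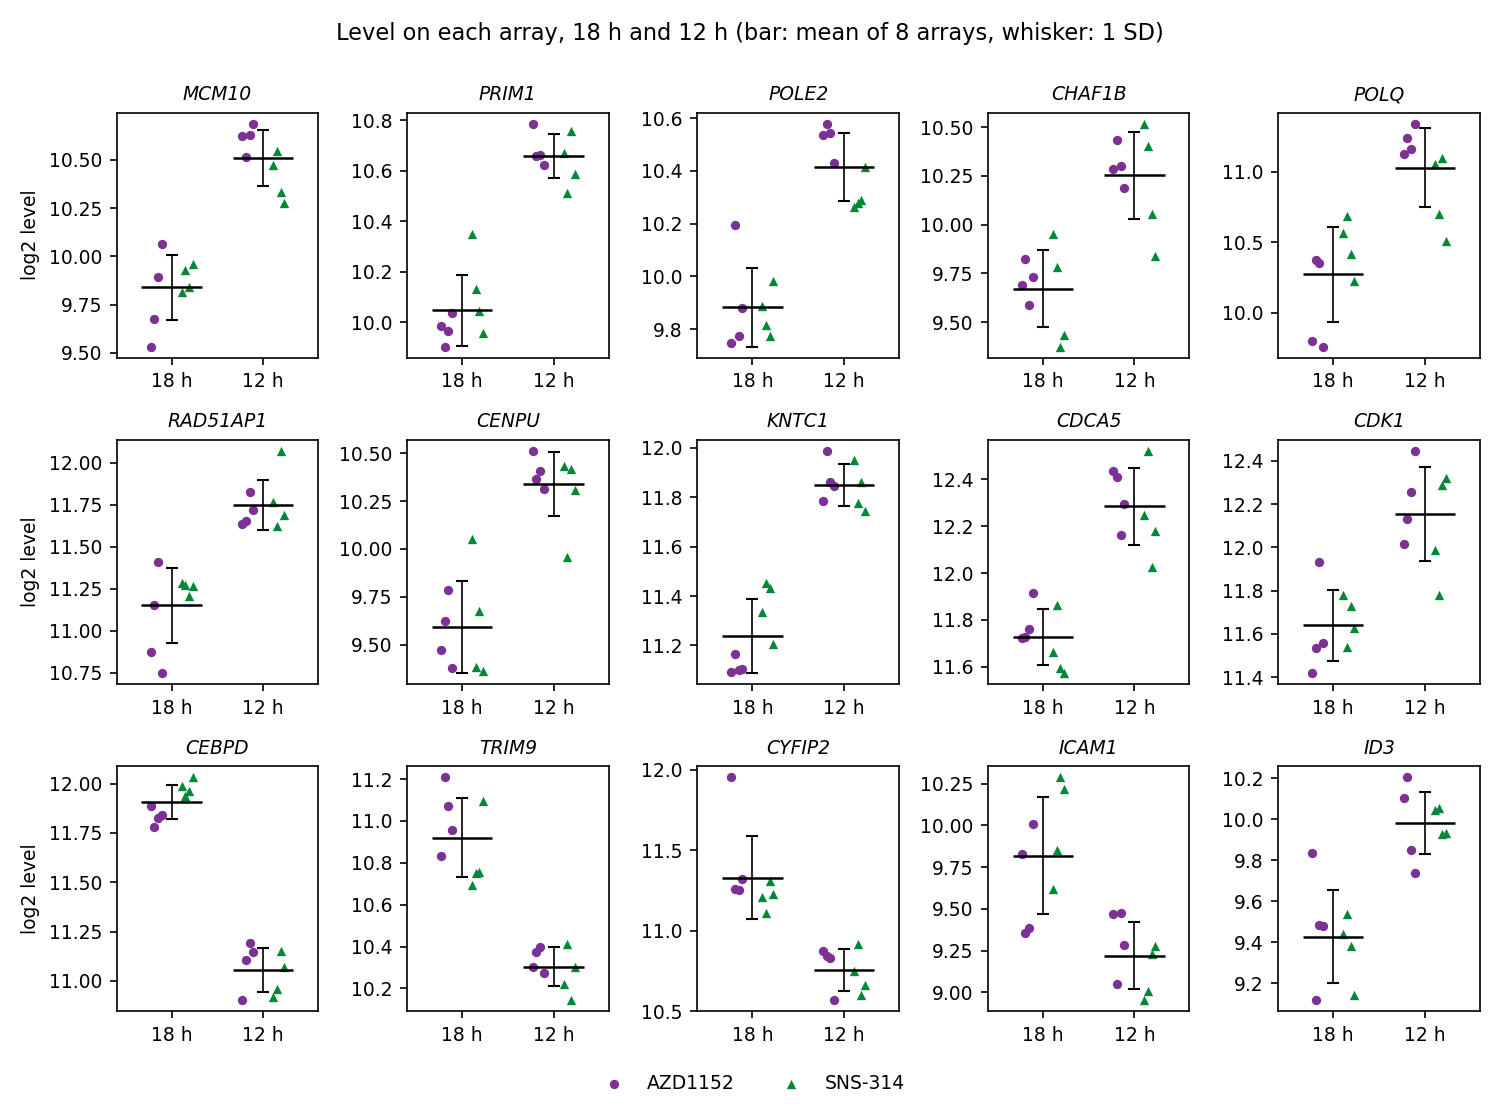
Log2 level of 15 genes on each of the 16 arrays, 18 h left and 12 h right, with AZD1152 as circles and SNS-314 as triangles. Bars are means of 8 arrays and whiskers 1 SD. MCM10, PRIM1, POLE2, RAD51AP1, KNTC1 and CDCA5 lie lower at 18 h with no overlap, and CEBPD, TRIM9 and CYFIP2 lie higher with none.

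Among the genes that rose, CEBPD, a transcription factor of the acute-phase and growth-arrest responses, lay at 11.78 to 12.03 (median 11.91) at 18 h, against 10.90 to 11.19 (median 11.09) at 12 h. All 8 arrays at 18 h lay above all 8 at 12 h, and CEBPD rose by 0.85 ± 0.069 (adjusted p = 2.2e-07), 1.80-fold, the largest change in either direction. TRIM9, a ubiquitin ligase best known from neurons, lay at 10.70 to 11.21 (median 10.90) at 18 h, against 10.14 to 10.41 (median 10.30) at 12 h. Those groups did not overlap either, and TRIM9 rose by 0.62 ± 0.077 (adjusted p = 0.00011), while its other passing probe had a change of 0.18. SCARA5, a receptor that takes up ferritin, and TEF, a clock-controlled transcription factor, were each above background on 8 arrays at 18 h and on 2 at 12 h. Both met the filter only through 18 h, where they are high. Their changes of 0.67 (SCARA5) and 0.61 (TEF) are therefore given as a description, with no test, although both remain in the counts of called genes.

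The other high changes by the same ranking were in genes of varied roles. CHI3L2, a secreted chitinase-like protein, rose by 0.59 ± 0.091 with no overlap (adjusted p = 0.00089), above background on 8 and 4 arrays. RASL12, a Ras-like protein, rose by 0.60 ± 0.11 (adjusted p = 0.0041). LAD1, a protein of anchoring filaments, rose by 0.58 ± 0.10 (adjusted p = 0.0030). MAPRE3, which tracks the growing ends of microtubules, rose by 0.57 ± 0.14 (adjusted p = 0.025), a call that was lost when any 1 of 4 arrays was left out.

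Of 32 measured p53 targets (42 listed), 1 was higher and 0 were lower, where 1.63% of all genes were higher. The median was 0.16, and 26 members had a positive change, as did 4395 of all 8568 genes. By inhibitor the median was 0.17 with AZD1152 and 0.085 with SNS-314. Without the 3 arrays that stood apart, 1 member was higher and 1 lower. CYFIP2, a p53 target that binds the actin-regulating WAVE complex, lay at 11.11 to 11.95 (median 11.25) at 18 h, against 10.57 to 10.92 (median 10.79) at 12 h, with no overlap. It rose by 0.57 ± 0.095 (adjusted p = 0.0016). TP53I3, an oxidoreductase, had a change of 0.38 ± 0.12 (adjusted p = 0.080). CDKN1A, which encodes p21, had median levels of 14.39 at 18 h and 14.17 at 12 h (0.20 ± 0.077, adjusted p = 0.18). MDM2, which marks p53 for destruction, had a change of 0.16 ± 0.090 (adjusted p = 0.37), and the stress cytokine GDF15 one of 0.31 ± 0.13 (adjusted p = 0.20). The promoters of the 2 members with the largest changes are printed for the p53 half-site.
CYFIP2 (chr5:157265973-157266122, plus strand): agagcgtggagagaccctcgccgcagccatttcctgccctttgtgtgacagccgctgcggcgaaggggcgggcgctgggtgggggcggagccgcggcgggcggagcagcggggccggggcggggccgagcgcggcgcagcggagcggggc
TP53I3 (chr2:24084835-24084984, minus strand): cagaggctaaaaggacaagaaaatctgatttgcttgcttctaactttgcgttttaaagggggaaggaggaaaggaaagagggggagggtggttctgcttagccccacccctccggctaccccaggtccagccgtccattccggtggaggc
Neither stretch held a searched motif, and an E2F word lay 237 bases before the start of CYFIP2, outside the stretch. A p53 half-site lay in 2 of the 23 windows of measured list members with an entry (8.70%), and in 6.63% of all promoters.

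NF-κB targets are genes of the inflammatory response. Of 23 measured (30 listed), 4 were higher and 0 lower, where 1.63% of all genes were higher, with a median of 0.21. The count was 7 without the 3 arrays that stood apart, where 2.18% of all genes were higher. The median was 0.05 with AZD1152 and 0.34 with SNS-314, and it was -0.0042 on chip 4. ICAM1, an adhesion molecule for leukocytes, lay at 9.35 to 10.29 (median 9.84) at 18 h, against 8.95 to 9.48 (median 9.25) at 12 h. The ranges overlapped through 2 arrays of AZD1152 at 18 h, and ICAM1 rose by 0.60 ± 0.13 (adjusted p = 0.010). IL1B, the cytokine interleukin-1β, rose by 0.43 ± 0.11 (adjusted p = 0.026), and its call was lost when any 1 of 5 arrays was left out. TNFAIP3 (A20), a feedback inhibitor of NF-κB, rose by 0.37 ± 0.10 (adjusted p = 0.048), a call lost in 11 of 16 such tests, and BCL3 was the fourth member. None of the 17 measured secreted factors of senescent cells was called, where 3.54% of all genes were, and 1 was higher without the 3 arrays.

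Of 26 ATF4 and amino acid stress targets 2 were higher, with a median of 0.12. The counts on this and the next 4 lists are of 1 or 2 members each, where 1.63% of all genes were higher. Such counts are too small to read as a result about a list. DDIT4 (REDD1), a stress-induced inhibitor of mTORC1, lay at 11.16 to 11.67 (median 11.46) at 18 h, against 10.75 to 11.23 (median 10.88) at 12 h, with overlap, and rose by 0.52 ± 0.083 (adjusted p = 0.0011). ASNS, asparagine synthetase, rose by 0.40 ± 0.11 (adjusted p = 0.049), and its other passing probe had a change of 0.046. HSPA5 (BiP), the main chaperone of the endoplasmic reticulum, rose by 0.40 ± 0.11 (adjusted p = 0.042) and was the only one of 17. HK2 (hexokinase 2) rose by 0.42 ± 0.099 (adjusted p = 0.019) and ANKRD37 by 0.27 ± 0.075 (adjusted p = 0.044), 2 of 23 genes of glycolysis and hypoxia. The other passing probe of HK2 had a change of 0.015, and with the mean over both probes the call was lost (0.22, adjusted p = 0.39). INSIG1, which holds back cholesterol synthesis, rose by 0.30 ± 0.076 (adjusted p = 0.030), 1 of 16 of its list. FOS, an immediate early gene, rose by 0.51 ± 0.14 (adjusted p = 0.041), 1 of 20. Without the 3 arrays that stood apart, ASNS (adjusted p = 0.070), HSPA5 (0.052), FOS (0.053) and ANKRD37 (0.081) missed the threshold. Leaving out single arrays ended the call of ASNS in 10 of 16 cases, of HSPA5 in 10, of FOS in 12, of ANKRD37 in 11 and of INSIG1 in 6.

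In the TGF-β and BMP list, 2 of 11 were lower, where 1.9% of all genes were lower. Both are ID genes, inhibitors of differentiation factors that BMP signals induce. ID3 lay at 9.12 to 9.84 (median 9.46) at 18 h, against 9.74 to 10.20 (median 9.99) at 12 h. The ranges overlapped through 1 array of AZD1152 at 18 h, and ID3 fell by 0.55 ± 0.095 (adjusted p = 0.0021). ID1 lay at 9.38 to 10.15 (median 9.61) at 18 h, against 9.83 to 10.34 (median 10.18) at 12 h, with overlap, and fell by 0.52 ± 0.094 (adjusted p = 0.0030). No gene was called on the lists of interferon-stimulated genes (26 measured), lysosome (33), YAP targets (15), contractile cytoskeleton (16), ribosome biogenesis (24), extracellular matrix (17), cytosolic ribosomal proteins (22) or proteasome (25). The medians of these 8 lists lay between -0.036 and 0.057, and the share called over all genes was 3.54%. Without the 3 arrays that stood apart, 5 members were called: PARP9 (0.25, adjusted p = 0.042) and IFI6 (-0.33, adjusted p = 0.039) of the interferon list, CNN2 (-0.43, adjusted p = 0.0096) of the contractile list, VCAN (0.39, adjusted p = 0.016) of the matrix list and RPL26 (-0.40, adjusted p = 0.012) of the ribosomal list.

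**Figure D3:**
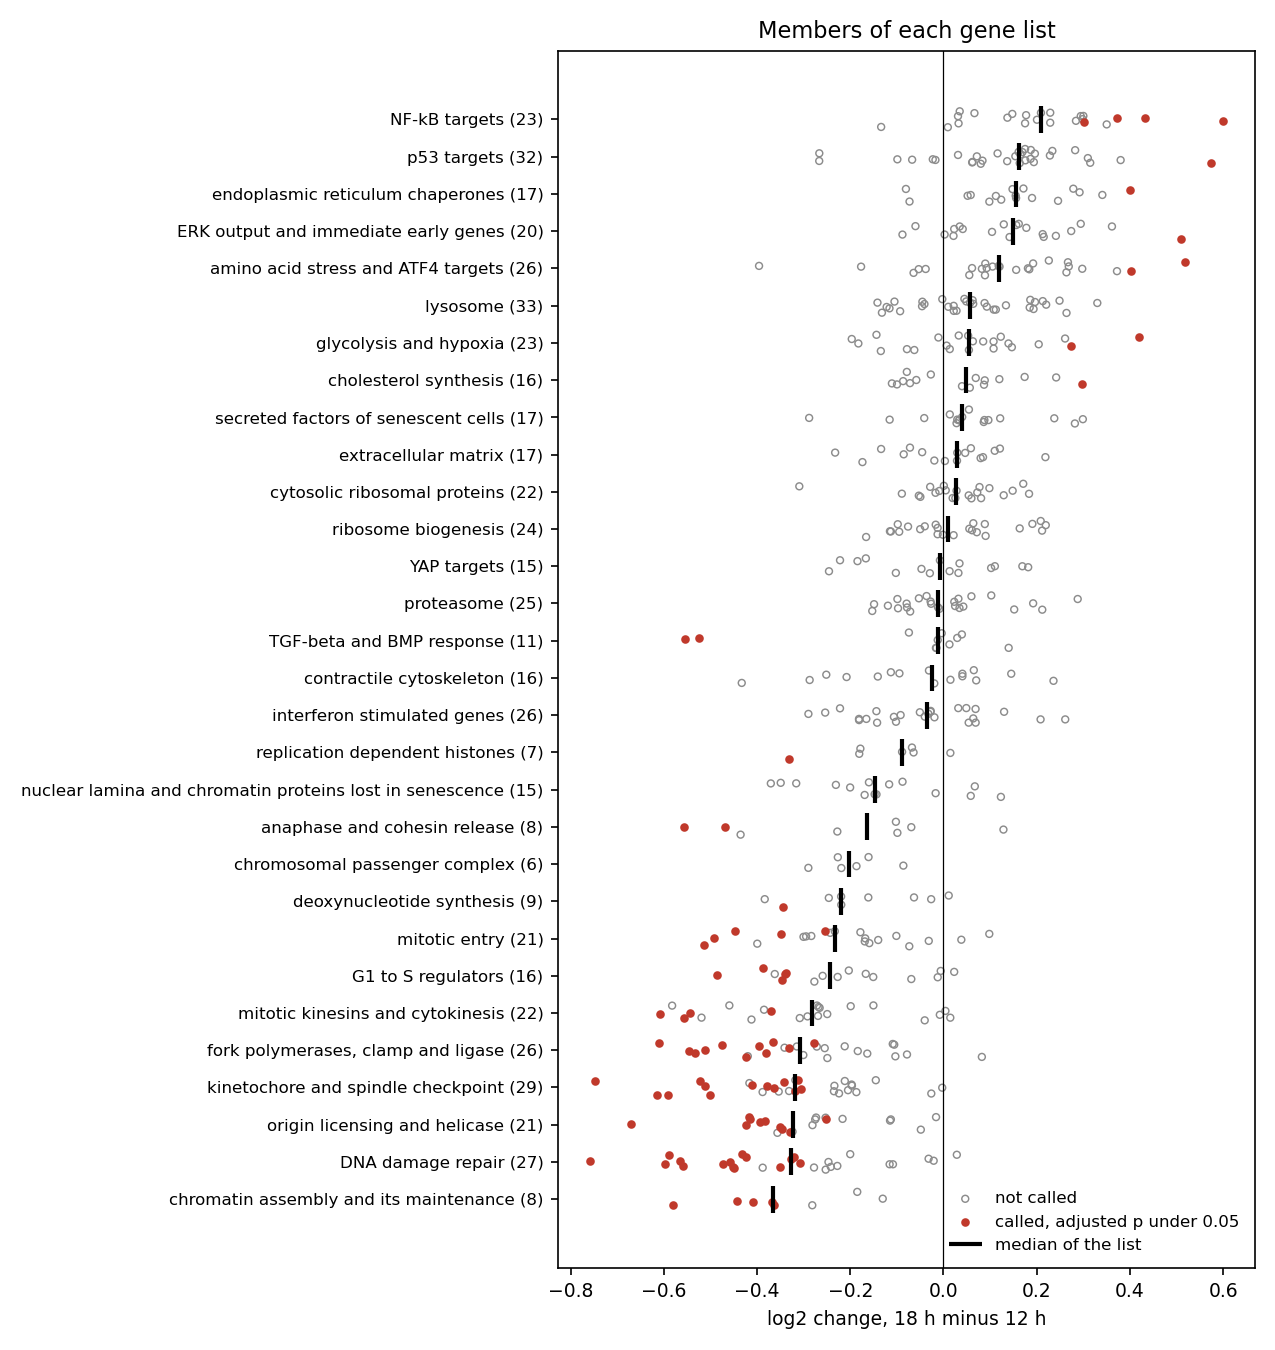
Log2 change (18 h minus 12 h) of each measured member of 30 gene lists, with called members in red, others as open circles and the list's median as a bar. Numbers in brackets are measured members. The medians of the replication, repair and mitosis lists lie left of 0, and their called members are all lower.

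The same step was then read within each inhibitor. With AZD1152, 252 genes were called (2.94%), 115 higher and 137 lower, and 2008 had an unadjusted p under 0.05. With SNS-314, 9 were called (0.105%), 4 higher and 5 lower, and 654 had an unadjusted p under 0.05. With the chip as a block, these counts were 458 (5.35%) and 25 (0.292%), and without the 3 arrays that stood apart they were 69 and 33. Leaving out 1 array at a time moved the count with AZD1152 between 60 (without replicate 3 at 12 h) and 911 (without replicate 3 at 18 h), and that with SNS-314 between 1 and 30 (without replicate 1 of AZD1152 at 18 h). The difference between inhibitors was tested for each gene, and 0 genes were called (limma, percent called 0), with 885 at an unadjusted p under 0.05 and a lowest adjusted p of 0.274, which does not show that the inhibitors acted alike. The median standard error of this difference was 0.175, and over the 303 called genes the median size of the change was 0.43 with AZD1152 and 0.34 with SNS-314. CEBPD (0.75 with AZD1152 and 0.96 with SNS-314), TRIM9, PRIM1, KNTC1 and CDCA5 passed the threshold within each inhibitor taken alone. The SNS-314 count was 1 in 11 of the 16 cases with an array left out and 1 under 4 other settings. At most 1 of these genes therefore kept its SNS-314 call there.

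The gene with the smallest p for that difference was CXCL8, the neutrophil attractant interleukin-8, named here after its values were seen. With AZD1152 it lay at 11.89 to 12.61 at 18 h, against 12.75 to 12.81 at 12 h. With SNS-314 it lay at 12.99 to 14.04 at 18 h, against 12.44 to 13.10 at 12 h. The groups overlapped with SNS-314 and not with AZD1152. The change of CXCL8 was -0.49 with AZD1152 and 0.84 with SNS-314, a difference (AZD1152 minus SNS-314) of -1.33 ± 0.25 that missed the threshold (adjusted p = 0.274). IL6, also picked after its values were seen, had a change of -0.18 with AZD1152 and 0.60 with SNS-314 (difference adjusted p = 0.467).

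**Figure D4:**
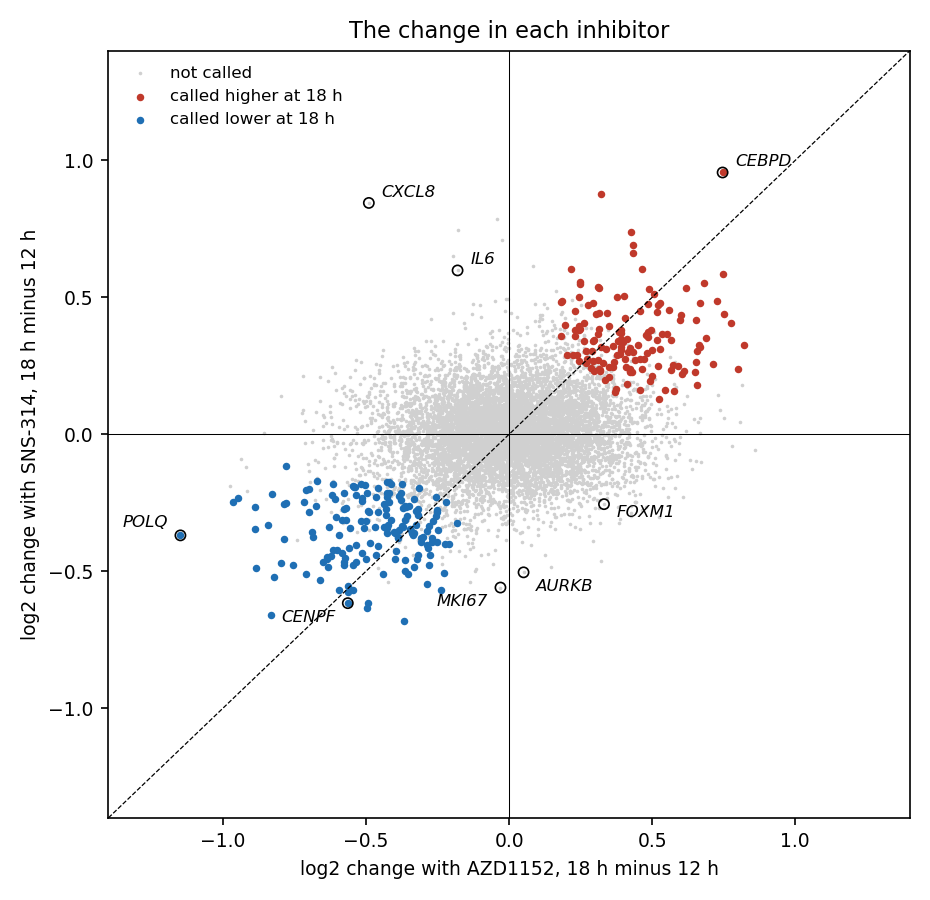
Log2 change (18 h minus 12 h) with AZD1152 (horizontal) and with SNS-314 (vertical), 1 point a gene, with equal change on the dashed line. The 303 called genes, which were chosen on the mean of both inhibitors, fall in the quadrants of equal sign, and CXCL8, not called, lies at -0.49 with AZD1152 and 0.84 with SNS-314.

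Last, the step was set against the steps on either side of it. These contrasts used all 42 arrays, and neighbouring steps share the arrays of 1 time. The change from 12 to 18 h differed from that from 6 to 12 h for 313 genes (3.65%), 194 of them more positive (2.26%) and 119 more negative (1.39%). With the chip as a block the count was 518. Chip 3, where the mitosis median from 12 to 18 h was -0.47, holds no array at 6 h. The list counts that follow come from the fit with no block. Of the 86 mitosis genes, 21 were among the more negative and 0 among the more positive, and of the 64 replication genes 1 and 0. The mitosis list had median changes of 0.10 from 6 to 12 h, -0.27 from 12 to 18 h and -0.34 from 18 to 24 h. The replication list had medians of -0.18, -0.29 and -0.14 over the same 3 steps.

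CENPF was 1 of the 21, with a change of 0.35 from 6 to 12 h and of -0.59 from 12 to 18 h, and the steps differed by -0.94 ± 0.21 (adjusted p = 0.0056). NEK2, a kinase that splits the centrosomes before mitosis, had changes of 0.68 and -0.40 over these steps (difference -1.08 ± 0.24, adjusted p = 0.0061), although its change from 12 to 18 h alone was not called (adjusted p = 0.096). HMMR and KIF20B differed in the same direction, by -0.89 and -0.95. The largest differences, however, belonged to genes whose larger change came before 12 h. ABLIM1, an actin-binding protein, had a change of -1.32 from 6 to 12 h and of 0.16 from 12 to 18 h, and RDH10, a retinol dehydrogenase, had changes of -1.38 and -0.097. In the other direction, EBF1, a transcription factor first known from B cells, had changes of 1.42 and then -0.13, and MMP16, a membrane metalloproteinase, of 1.07 and then -0.11. CTLA4, an immune checkpoint receptor, had changes of 1.00 and then -0.065, and it passed the background on 5 of 8 arrays at 18 h and on 4 of 8 at 12 h.

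AVPI1, a gene induced by vasopressin in kidney cells, changed by -0.86 from 6 to 12 h and rose by 0.41 from 12 to 18 h with no overlap (difference 1.28 ± 0.13, adjusted p = 3.9e-09). Its levels were 10.99 to 11.52 (median 11.16) at 18 h, against 10.59 to 10.92 (median 10.83) at 12 h. NNMT, which methylates nicotinamide, had changes of -1.27 and then 0.44, and the second of these was not called (adjusted p = 0.22). Its levels of 8.86 to 10.52 (median 9.28) at 18 h overlapped those of 8.60 to 9.70 (median 8.88) at 12 h, and the highest array was 1 of AZD1152.

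Fewer genes set this step apart from the next, 18 to 24 h: 17 (0.198%), 8 more positive and 9 more negative. This count depended on single arrays: it was 284 without replicate 3 of AZD1152 at 18 h, 82 without replicate 4 of SNS-314 at 12 h and 7 without replicate 3 of SNS-314 at 18 h. It was 116 with the chip as a block. MCM10 fell in both earlier steps (-0.60 from 6 to 12 h and -0.67 from 12 to 18 h) and had a change of 0.091 from 18 to 24 h (difference -0.76 ± 0.14, adjusted p = 0.0089). PRIM1, KNTC1, E2F2 and POLQ differed between the steps in the same direction, by -0.55, -0.54, -0.63 and -0.69. CEP44, a protein of centrosomes, fell by 0.45 from 12 to 18 h, a call lost when any 1 of 10 arrays was left out, and then had a change of 0.24 (adjusted p of the difference = 0.045). HMGCS1, an enzyme early in cholesterol synthesis, had a change of -0.11 from 12 to 18 h and of 0.60 from 18 to 24 h (difference -0.72 ± 0.13, adjusted p = 0.0046).

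CEBPD, KLF4, FOXF1 and UBE2C had the largest differences on the more positive side. CEBPD had a change of 0.00017 from 6 to 12 h, rose by 0.85 from 12 to 18 h, and had a change of 0.081 from 18 to 24 h, so its step differed from the one before (adjusted p = 1.5e-06) and from the one after (adjusted p = 8.5e-05). KLF4, which can halt the cell cycle, lay at 8.56 to 8.97 (median 8.77) at 18 h, against 8.02 to 8.55 (median 8.35) at 12 h. It rose by 0.42 ± 0.073 with no overlap (adjusted p = 0.0023) and then changed by -0.40 from 18 to 24 h, and 3 of 8 arrays at 12 h were above background. FOXF1, a factor of mesenchyme development, rose by 0.52 ± 0.090 with no overlap (adjusted p = 0.0021) and then had a change of -0.17. UBE2C, the ubiquitin-conjugating enzyme of the anaphase-promoting complex, is another mitotic gene. It had a change of -0.099 from 12 to 18 h (adjusted p = 0.59) and of -0.73 from 18 to 24 h, a difference of 0.63 ± 0.12 (adjusted p = 0.011).

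**Figure D5:**
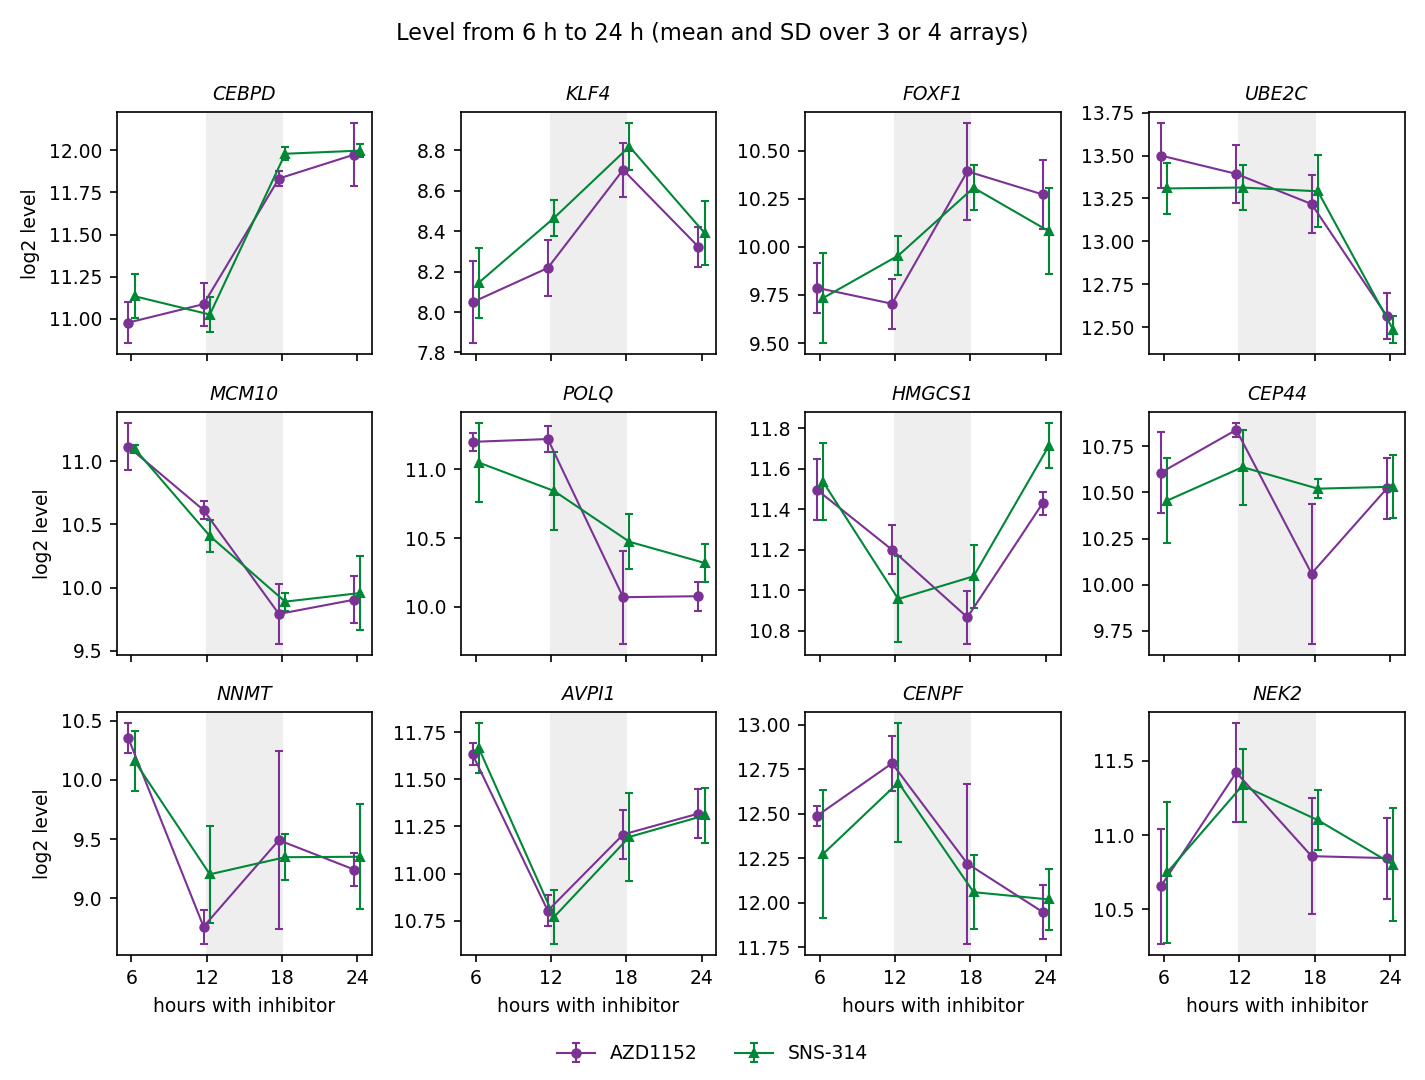
Mean log2 level (± SD, 3 arrays a point at 6 h and 4 otherwise) of 12 genes at 6, 12, 18 and 24 h with AZD1152 and SNS-314, with the 12 to 18 h step shaded. CEBPD climbs mainly within the shaded step, MCM10 falls up to 18 h and then levels, and CENPF and NEK2 rise to 12 h before they fall.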

How the data were processed

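Total RNA of 1205Lu cells was labelled with biotin using a MessageAmp kit, per the labels' protocols, and read on 42 arrays. The authors deposited non-normalised intensity values, with no background subtracted as far as the values show, and a table of log2 values with equal quantiles, whose median was 8.15 on each array. For that table, the method of background correction and normalisation is not given in the sources used here. Of 2 header lines in the intensity file, which disagree on the samples, the second matched the deposited log2 values of the same sample for 42 of 42 columns (lowest rank correlation 0.999977, against at most 0.936641 with another sample) and was used.

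Intensities were corrected with normexp (offset 50), quantile normalised over the 42 arrays and log2 transformed with limma 3.58.1 (R 4.3.3). A probe was kept if above background on at least 3 arrays of 1 of the 4 groups. Background was the 95th percentile of normal noise centred on the density mode of an array. The spread of that noise was taken from the values under the mode. Probe genes came from the platform annotation (30110 of 47312 probes with 1 symbol, 8 with several, 17194 with none), and symbols were updated by Entrez ID for 8566 of 8568 genes. The brightest passing probe stood for each gene; of 73 called genes with other passing probes, 0 had a probe of opposite sign. The fit was inhibitor plus time over 16 arrays. Single inhibitors and their difference came from 4 group means, and contrasts of steps from all 42 arrays, with p-values adjusted by Benjamini-Hochberg. The fit was tested on simulated data.

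Column headers end in a letter (A to L) and 2 digits. The digits were read as the chip, which no label states. Among the 16 arrays at 12 and 18 h, each chip held the 4 arrays of 1 replicate number. Replicate numbers were therefore taken to pair these samples by chip. Errors and p-values in the text come from fits with no term for this pairing, unless a block is named. Deviations from group means correlated with a median r of 0.25 (0.082 to 0.39) between 18 h and 12 h arrays of the same inhibitor and number (8 pairs). The median was 0.17 over all 24 pairs of the same number in different groups, and -0.11 over 72 pairs of different numbers. The alternatives were background correction, normalisation, filters, probe choice, variance model, arrays in the fit, blocks and left-out arrays. The text names the 10 largest called changes in each direction, the 3 largest of each list, 12 genes fixed by name and the 4 largest step differences each way; the members and lists were chosen with earlier results of these data known.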

Additional observations from a re-analysis of the deposited data

Results flagged for a closer look

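Of 316 groups of 4 arrays, 16 had 1 array far from the other 3, and chance gives about 1 in 20. Replicate 1 of AZD1152 at 18 h, which stood apart over all genes, accounted for 5 of them. There CYFIP2 had a log2 level of 11.95 (others 11.25 to 11.32), AURKB 12.0 (11.19 to 11.29), TP53I3 10.68 (9.826 to 9.972), ID1 10.15 (9.602 to 9.65) and E2F7 9.06 (9.431 to 9.5). In replicate 2 of that group KNTC1 had 11.17 (11.09 to 11.11).

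With AZD1152 at 12 h, CYFIP2 had 10.57 in replicate 4 (others 10.83 to 10.87) and KIF20B 11.55 in replicate 3 (11.91 to 11.98). With SNS-314 at 18 h, replicate 4 had TRIM9 at 11.09 (10.7 to 10.75) and AURKA at 12.38 (12.93 to 12.96), and replicate 3 had E2F2 at 9.837 (10.11 to 10.14). With SNS-314 at 12 h, UHRF1 had 12.65 in replicate 4 (12.92 to 12.97), HMMR 12.39 in replicate 2 (12.89 to 12.98) and IL1B 13.99 in replicate 1 (14.25 to 14.3). The median correlation with the own group was 0.9863 for replicate 4 of AZD1152 at 12 h (others 0.9901 to 0.9902) and 0.9869 for replicate 4 of SNS-314 at 18 h (0.9904 to 0.9908).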

How the results depend on the processing

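No named gene that was called turned its direction under an alternative that was run. Of those not called, FOXM1 ran from -0.051 to 0.13, MMP16 from -0.22 to 0.12 and DLC1 from -0.34 to 0.11. The 54 named genes that were called include SCARA5 and TEF, whose calls are not read as a test. For these 54, 666 of 694 values under another setting kept the call, as did 760 of 864 values with 1 array left out. For the 75 that were not called, 87 of 964 and 37 of 1200 values gained a call. Leaving out 1 array at a time gave 188 to 443 called genes at 18 h against 12 h, 60 to 911 with AZD1152, 1 to 30 with SNS-314, 0 to 1 for their difference, 210 to 369 against the earlier step and 7 to 284 against the later step. The medians then ran from -0.3192 to -0.2825 for replication, -0.2869 to -0.2455 for mitosis and 0.1271 to 0.17 for p53 targets. Over the 16 arrays the replicate block equals the chip, and it gave 396 calls in all, 458 with AZD1152, 25 with SNS-314 and 0 for their difference. Over all 42 arrays the replicate number and the chip differ. There the replicate block gave 472 calls against the earlier step and 101 against the later. With the chip as a fixed block the step contrasts gave 518 and 116 calls, with 458 for AZD1152 and 25 for SNS-314. As a random block the chip gave 485 with AZD1152, 33 with SNS-314, and 481 and 86 for the steps. With no filter on dim probes, calls were 167 in all, 95 with AZD1152, 1 with SNS-314, 161 and 4 for the steps, and the p53 median was 0.1366. With all 42 arrays in the fit, calls were 828, 1205 and 120, and 1 for the difference between inhibitors. Without the 3 arrays that stood apart, they were 69 with AZD1152, 33 with SNS-314 and 11 against the later step. SNS-314 had 1 call with scaling to the 75th percentile, with a filter over the 11 groups, and with trended, robust variances. The later-step count was 27 with no background correction, and the p53 median was 0.1356 on the deposited log2 values. Genes above background on all 16 arrays had medians of -0.3238 (replication) and 0.1263 (p53). Within chips, replication had -0.2555 on chip 1 and -0.2622 on chip 4, mitosis -0.4654 on chip 3 and p53 0.1142 on chip 4. The cause of these shifts was not tested.

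Signal over background limits the dim genes: 240 of the 303 called genes were above background on all 16 arrays and 57 on some. The other 6 (ARSD, NINJ2, SLC18B1, SV2B, YPEL2 and ZHX2) were below it on every array at 12 h, so no fold is given for them. They met the filter only through 18 h and are still counted among the 303.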
